A study of Homo sapiens with 9 samples.

Results

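The lysosome genes of H1299 cells were followed after depletion of FIBP, a protein that was first described as a binding partner of acidic fibroblast growth factor. The rule used the annotation and no measured value, although the pathway and the role lists were chosen with earlier results of these data known. A gene entered when at least 1 of its transcripts carried the KEGG map for the lysosome (map04142), and the FPKM of all its transcripts were then summed. FPKM, fragments per kilobase scaled to the size of the library, is a level corrected for transcript length. The same 372 genes of 60966 were found in every table. Of these, 123 were on lists of lysosomal enzymes, membrane proteins, proton pump subunits and sorting factors (genes with a role below), and 249 were not.

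The lysosome is the acidic compartment in which cells break down proteins, glycans, lipids and nucleic acids. Its soluble hydrolases are tagged with mannose 6-phosphate in the Golgi apparatus, bound by mannose 6-phosphate receptors and carried to endosomes in clathrin-coated vesicles formed with adaptor complexes, while the V-ATPase pumps the protons that keep the lumen acidic. Many of these genes carry short E-box-like motifs near their start sites that are recognised by TFEB, TFE3 and MITF, factors known for raising lysosomal gene expression.

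H1299 is a human lung cancer cell line. All cells were transfected and collected at 48 h, and 3 samples each received a Scramble siRNA, Si-FIBP#1 or Si-FIBP#2. The labels call the samples of each group independent. Only a transient knockdown in 1 cell line was profiled, and no sample without transfection was analysed here. Poly(A) RNA was sequenced, and the values were deposited with 2 decimals, no counts and no named unit, and were read as FPKM from how they sum.

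FIBP itself was at 88.38, 79.49 and 77.74 FPKM in Scramble cells, 7.49, 7.77 and 4.30 in those given Si-FIBP#1 and 7.13, 5.92 and 8.21 in those given Si-FIBP#2. It fell with each siRNA, with log2 fold changes of -3.50 (limma adjusted p = 9.4e-07) and -3.36 (limma adjusted p = 1.4e-06), and the 95% interval of the difference between the siRNAs ran from -0.28 to 0.54. KRT8, KRT18 and VIM were expressed in all 9 samples, whereas CDH1 was at 0 and the leukocyte and endothelial markers reached at most 0.41 FPKM. KRT18 was at 466.87 to 483.13 FPKM with Scramble and at 142.89 to 225.50 FPKM with the FIBP siRNAs. VIM was at 3150.89 to 3368.80 and 1592.49 to 2454.75 FPKM in the same samples, and KRT8 at 104.40 to 108.14 and 67.15 to 84.21 FPKM. CDH2 was higher with the siRNAs, at 12.80 to 13.70 and then 16.43 to 18.46 FPKM, while KRT7 overlapped (7.51 to 9.32 and 4.50 to 8.18 FPKM). The part of these markers in the results was not tested. The depth, estimated from the steps between low FPKM values, was about 20150000 to 23800000 fragments per sample. Si-FIBP#2 replicate 2 stood somewhat apart. It correlated at r = 0.983 to 0.984 with the other samples of its group, which correlated at 0.988 with each other, and at up to 0.983 with Si-FIBP#1 samples (across genes, which are not independent replicates). Where a call or fold against Scramble that is reported below for a gene named by rule turned on this sample, it is also given without it.

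Of the 372 genes, 180 reached 1 FPKM in at least 3 samples and were tested, and 83 were at 0 in all 9 samples. Among the genes with a role, 108 of 123 were tested. The other 15 were CTSE, CTSG, CTSS, CTSW, NAPSA, HYAL1, PSAPL1, ACP5, DNASE2B, ATP6V0A4, ATP6V0D2, AP3B2, LAMP3, LAPTM5 and SLC11A1, and the highest group mean among them was 1.07 FPKM (LAMP3, Si-FIBP#2). These include proteins best known from blood cells, osteoclasts, kidney or neurons. A count below is of tested genes, so it does not speak for the genes that were too low. At the estimated depth, 1 FPKM on a transcript of 2000 nucleotides stands for about 37.6 fragments.

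Most lysosomal enzymes and their carriers were higher with both FIBP siRNAs, while the adaptors that carry them were split. With Si-FIBP#1, 66 of the 108 tested genes with a role rose and 14 fell at a false discovery rate (FDR) below 0.05, against 27.8% and 19.9% of all 14985 genes tested. With Si-FIBP#2, 68 rose and 9 fell, against 31.1% and 17.7% of all genes. The test was limma on log2(FPKM + 1) with Benjamini-Hochberg adjustment over all genes, and fold changes are on that scale, which understates the change of low genes. Median log2 fold changes of the 108 genes were 0.34 and 0.39, beside medians of 0.07 and 0.11 over all genes. In RNA from whole cultures, a change in the share of cells and a change in the RNA of each cell cannot be told apart. Both comparisons used the same 3 Scramble samples, so their values are set side by side and do not count as separate evidence.

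Past the study's threshold of 2-fold with FDR below 0.05, 8 genes with a role rose and 2 fell with Si-FIBP#1, and 10 rose and 0 fell with Si-FIBP#2. Under the other settings tried, 7 to 10 genes rose past 2-fold after the first siRNA and 8 to 12 after the second. AP1M2 was 1 of the 2 that fell and no longer passed 2-fold without Scramble replicate 1 or Si-FIBP#1 replicate 1. Over all tested genes this threshold was passed by 5.66% for Si-FIBP#1 (2.55% up, 3.11% down) and by 5.05% for Si-FIBP#2 (2.92% up, 2.13% down). In 59 of the 108 genes, all 6 FIBP siRNA samples lay above all 3 Scramble samples (54.6%, against 26.3% of all genes), and in 11 they lay below (10.2%, against 16.5%). The genes with a role took 0.590% to 0.599% of the total FPKM in Scramble cells, 0.743% to 0.760% after Si-FIBP#1 and 0.783% to 0.847% after Si-FIBP#2.

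**Figure D1:**
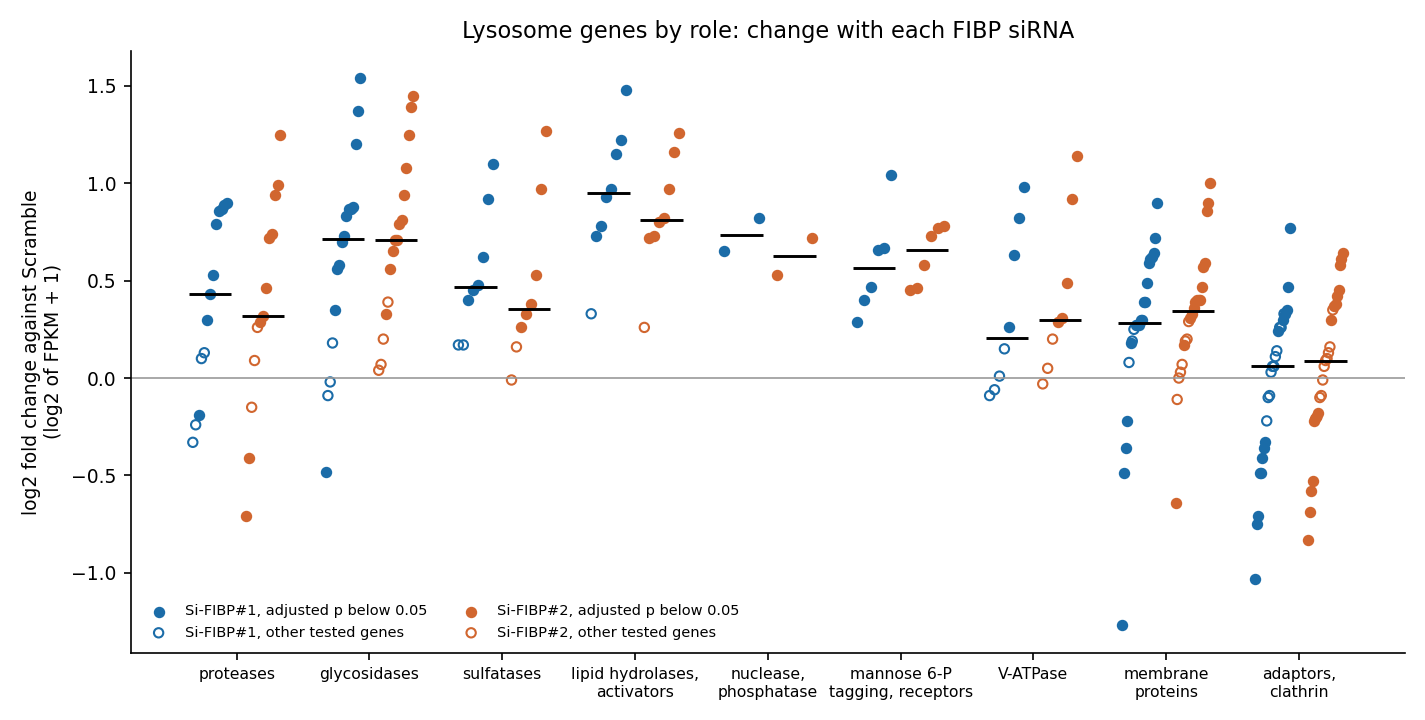
Log2 fold change against Scramble (y axis, log2 of FPKM + 1) of each tested gene with a lysosomal role, by role (x axis), for Si-FIBP#1 (blue) and Si-FIBP#2 (orange). Filled points passed an adjusted p of 0.05 in limma, open points did not, and black lines are medians; the enzyme lists and the mannose 6-phosphate list lie mostly above 0, whereas adaptors and clathrin lie on both sides with medians of 0.06 and 0.09.

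The soluble hydrolases and their activators rose in most cases. Of 56 such genes, 47 were tested, and 35 rose and 2 fell with each siRNA, with medians of 0.70 and 0.71. Their summed level went from 1327 ± 30.9 FPKM (SD, n = 3 in each group) with Scramble to 2201 ± 22.4 after Si-FIBP#1 and to 2236 ± 101 after Si-FIBP#2, which is 166% and 168% of the Scramble mean. In 33 of the 47 genes (70.2%, against 26.3% of all genes) all 6 FIBP siRNA samples exceeded all Scramble samples.

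Among the glycosidases, which remove sugars from glycoproteins, glycolipids and glycogen, 12 of 16 tested genes rose with each siRNA. FUCA1, the lysosomal alpha-fucosidase, was at 7.38, 7.39 and 6.97 FPKM in Scramble cells, 21.21, 23.26 and 24.33 in those given Si-FIBP#1 and 18.07, 25.86 and 18.80 in those given Si-FIBP#2. It had the largest rise of all lysosome genes with Si-FIBP#1, with log2 fold changes of 1.54 (SE 0.12, limma adjusted p = 9.3e-06) and 1.39 (SE 0.12, limma adjusted p = 1.9e-05). The second value was 1.24 without replicate 2 of Si-FIBP#2. GAA, the acid alpha-glucosidase that degrades glycogen and is deficient in Pompe disease, was at 18.03, 15.58 and 15.00 FPKM in Scramble cells, 45.97, 46.04 and 38.17 in those given Si-FIBP#1 and 45.54, 46.93 and 44.82 in those given Si-FIBP#2. Its log2 fold changes were 1.37 and 1.45, the latter the largest rise of all with Si-FIBP#2. GLB1, the acid beta-galactosidase, was at 24.84, 25.62 and 23.88 FPKM in Scramble cells, 57.78, 59.12 and 57.64 in those given Si-FIBP#1 and 52.44, 57.96 and 50.27 in those given Si-FIBP#2. For these 3 genes the FIBP siRNA samples did not overlap the Scramble samples.

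GALC, the galactosylceramidase that is deficient in Krabbe disease, was at 8.96, 9.67 and 9.27 FPKM in Scramble cells, 15.05, 18.46 and 20.42 in those given Si-FIBP#1 and 22.46, 26.36 and 21.88 in those given Si-FIBP#2. It passed 2-fold only with Si-FIBP#2 (log2 fold change 1.25, beside 0.87). HEXA, which encodes the alpha subunit of beta-hexosaminidase, was at 48.89, 48.37 and 45.10 FPKM in Scramble cells, 57.21, 62.88 and 62.11 in those given Si-FIBP#1 and 77.38, 74.96 and 72.85 in those given Si-FIBP#2. The 3 groups did not overlap, and its log2 fold changes were 0.35 and 0.65. GUSB, the beta-glucuronidase, was the 1 glycosidase that fell, and only with Si-FIBP#1 (-0.48, limma adjusted p = 0.00139). It has several near-identical pseudogene copies, so its reads may be divided among them.

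The genes for lipid breakdown had the highest medians among the role lists, 0.95 and 0.81, and 7 of 8 tested genes rose with each siRNA. Over all genes 27.8% and 31.1% rose. PSAP, the precursor of the saposins that present sphingolipids to their hydrolases, was the most abundant of them. It was at 202.54, 199.87 and 196.44 FPKM in Scramble cells, 396.52, 387.60 and 388.65 in those given Si-FIBP#1 and 404.27, 400.02 and 370.11 in those given Si-FIBP#2. All FIBP siRNA samples were far above the Scramble samples, and both log2 fold changes were 0.97, just under the 2-fold threshold. LIPA, the acid lipase that hydrolyses cholesteryl esters, was at 28.54, 29.27 and 28.78 FPKM in Scramble cells, 64.98, 68.23 and 73.29 in those given Si-FIBP#1 and 70.34, 70.65 and 71.00 in those given Si-FIBP#2. Its log2 fold changes were 1.22 (SE 0.05, limma adjusted p = 4.4e-07) and 1.26 (SE 0.05, limma adjusted p = 5.9e-07).

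SMPD1, the acid sphingomyelinase, was at 7.99, 7.44 and 7.58 FPKM in Scramble cells, 22.96, 23.40 and 23.10 in those given Si-FIBP#1 and 15.55, 23.83 and 16.73 in those given Si-FIBP#2. PPT2, a lysosomal thioesterase, showed the same arrangement, with 14.65, 12.20 and 13.24 FPKM, then 30.75, 31.74 and 30.22 FPKM, then 21.17, 30.15 and 21.56 FPKM. In both genes the second Si-FIBP#2 sample lay at the Si-FIBP#1 level and the others lay between Scramble and Si-FIBP#1. The log2 fold changes were 1.48 and 1.16 for SMPD1 and 1.15 and 0.80 for PPT2. Without that second sample the Si-FIBP#2 values were 0.98 for SMPD1, which is then just under 2-fold, and 0.64 for PPT2, and both still passed FDR. PPT2 overlaps a readthrough gene, PPT2-EGFL8, so its level is uncertain. PPT1, the palmitoyl-protein thioesterase, rose by 0.78 and 0.72.

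**Figure D2:**
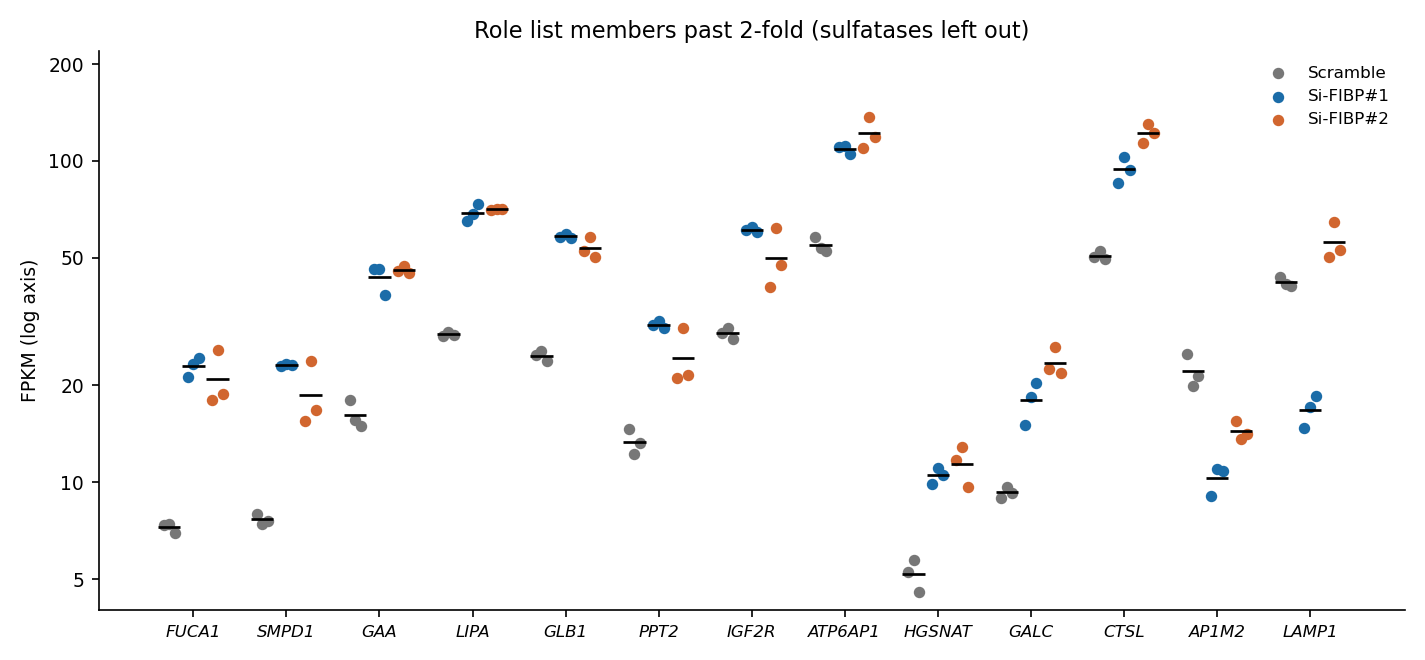
FPKM (y axis, log scale) of the 13 genes with a lysosomal role, the sulfatase list left out, that passed 2-fold with FDR below 0.05 in either comparison with Scramble, in each of the 3 Scramble (grey), 3 Si-FIBP#1 (blue) and 3 Si-FIBP#2 (orange) samples, with the mean as a black line. For FUCA1 to CTSL the 6 FIBP siRNA samples lie above the Scramble samples, for AP1M2 below them, and for LAMP1 the Si-FIBP#1 samples lie below and the Si-FIBP#2 samples above.

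All 8 sulfatase genes, including SUMF1, which activates sulfatases, were tested, and 6 rose with each siRNA (5 and 3 when samples were scaled by their median ratio). Before that scaling, 27.8% and 31.1% of all genes rose. SGSH, an enzyme of heparan sulfate breakdown, was at 18.62, 14.94 and 14.79 FPKM in Scramble cells, 26.55, 26.86 and 22.42 in those given Si-FIBP#1 and 22.19, 24.21 and 24.52 in those given Si-FIBP#2. The samples given either siRNA lay above the Scramble samples, and it rose by 0.62 and 0.53. Both tested genes of nucleic acid and phosphate ester breakdown rose, DNASE2 by 0.65 and 0.53 and ACP2, the lysosomal acid phosphatase, by 0.82 and 0.72.

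The proteases were less uniform. Of 13 tested, 8 rose with each siRNA, while 1 fell with Si-FIBP#1 and 2 fell with Si-FIBP#2. Scaled by the median ratio, 7 and then 6 rose and 2 fell with each. CTSD, the aspartic protease cathepsin D, was at 88.73, 83.88 and 84.00 FPKM in Scramble cells, 164.39, 163.20 and 149.58 in those given Si-FIBP#1 and 157.02, 178.46 and 160.59 in those given Si-FIBP#2, with log2 fold changes of 0.89 and 0.94. CTSA, the protective protein of beta-galactosidase and neuraminidase, was the most abundant protease in Scramble and rose by 0.79 and 0.74. CTSL, the cysteine protease cathepsin L, was at 50.38, 52.54 and 49.32 FPKM in Scramble cells, 85.11, 103.14 and 93.92 in those given Si-FIBP#1 and 113.60, 130.11 and 122.47 in those given Si-FIBP#2. The 3 groups did not overlap, and CTSL passed 2-fold with Si-FIBP#2 (1.25), beside 0.87 with Si-FIBP#1. CTSL has pseudogene copies that may share reads.

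CTSC, the dipeptidyl peptidase that activates granule proteases, moved the other way. It was at 83.89, 86.85 and 83.68 FPKM in Scramble cells, 72.75, 72.91 and 76.87 in those given Si-FIBP#1 and 56.64, 46.03 and 52.07 in those given Si-FIBP#2. Its fall by 0.71 after Si-FIBP#2 had a limma adjusted p of 4.1e-05. That by 0.19 after Si-FIBP#1 passed narrowly (limma adjusted p = 0.0485) and was lost in 11 of 17 other settings. LGMN, the asparaginyl endopeptidase legumain, was at 35.34, 37.05 and 37.17 FPKM in Scramble cells, 67.37, 70.54 and 69.01 in those given Si-FIBP#1 and 34.23, 63.54 and 38.88 in those given Si-FIBP#2. It rose with Si-FIBP#1 (0.90, limma adjusted p = 0.00254). With Si-FIBP#2 it did not pass (0.26, limma adjusted p = 0.256), and only replicate 2 of that group was high. Without that sample its log2 fold change was 0.00 (limma adjusted p = 0.991).

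All 6 genes of the mannose 6-phosphate list rose with both siRNAs, against 27.8% and 31.1% of all genes. The list also holds SORT1, a sorting receptor that does not need the tag. In each of the 6 genes all 6 FIBP siRNA samples lay above the Scramble samples, against 26.3% of all genes. Scaled by the median ratio, 5 of them still rose with Si-FIBP#1. GNPTAB encodes the catalytic subunits of the phosphotransferase that starts the tag. It was at 9.29, 8.72 and 9.31 FPKM in Scramble cells, 12.10, 12.78 and 14.25 in those given Si-FIBP#1 and 15.62, 17.00 and 16.28 in those given Si-FIBP#2. M6PR, the small receptor, was at 114.97, 118.75 and 115.90 FPKM in Scramble cells, 177.39, 185.99 and 195.05 in those given Si-FIBP#1 and 165.71, 191.53 and 168.44 in those given Si-FIBP#2. IGF2R, the large receptor, was at 29.22, 30.22 and 27.83 FPKM in Scramble cells, 60.75, 62.07 and 60.03 in those given Si-FIBP#1 and 40.43, 61.59 and 47.36 in those given Si-FIBP#2. IGF2R passed 2-fold with Si-FIBP#1 (1.04, limma adjusted p = 1.1e-04), and its log2 fold change with Si-FIBP#2 was 0.73, or 0.57 without replicate 2 of that group. The summed level of the 6 genes was 161% and 155% of the Scramble mean.

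The V-ATPase subunits on the map rose in part. Of 8 tested, 4 rose with Si-FIBP#1 and 5 rose with Si-FIBP#2, while 0 fell. Over all genes 27.8% and 31.1% rose. In 5 other settings 3 rose with Si-FIBP#2, which for 8 tested genes is near that share of the main fit. The share of all genes under those settings was not counted. Without a filter on low values, 1 of these settings, more than 8 were tested. Those that rose with Si-FIBP#1 were ATP6AP1, ATP6V0A1, ATP6V0D1 and ATP6V0A2. ATP6AP1, an accessory subunit, was at 57.78, 53.61 and 52.34 FPKM in Scramble cells, 110.10, 111.19 and 104.89 in those given Si-FIBP#1 and 109.23, 137.26 and 118.87 in those given Si-FIBP#2, and its log2 fold changes were 0.98 and 1.14. ATP6V0C, the proton-carrying ring subunit, was at 145.29, 126.23 and 127.78 FPKM in Scramble cells, 146.93, 153.84 and 140.92 in those given Si-FIBP#1 and 145.01, 190.47 and 162.15 in those given Si-FIBP#2. Its groups overlapped. The calls for ATP6V0C (0.31) and ATP6V0B (0.29) with Si-FIBP#2 were lost in 5 and 10 of 17 other settings. Without replicate 2 of Si-FIBP#2 they were 0.21 (limma adjusted p = 0.0538) and 0.15 (limma adjusted p = 0.0582). The count of 5 became 3 with no filter on low values, with median-ratio scaling, or without Scramble replicate 2, Scramble replicate 3 or Si-FIBP#2 replicate 2, and 6 without Si-FIBP#2 replicate 1. The Si-FIBP#1 count of 4 became 3 when scaled to TPM or by the median ratio. It was also 3 without Scramble replicate 2 or 3, or without Si-FIBP#1 replicate 1 or 3.

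Of 22 tested genes on the membrane protein list, 15 rose and 4 fell with Si-FIBP#1 (12 and 4 when scaled by the median ratio). The rises were 68.2%, against 27.8% of all genes, and the falls 18.2%, near the 19.9% of all genes. Without Scramble replicate 3, 11 rose with Si-FIBP#1. With Si-FIBP#2, 14 rose and 1 fell (13 and 3 when samples were scaled by their median ratio). These were 63.6% and 4.55% before that scaling, against 31.1% and 17.7% of all genes. CD63, a tetraspanin of late endosomes, had the highest level of all lysosome genes with a role. It was at 512.95, 519.85 and 548.72 FPKM in Scramble cells, 628.41, 646.69 and 630.76 in those given Si-FIBP#1 and 652.64, 669.35 and 637.33 in those given Si-FIBP#2. It rose only modestly, by 0.27 and 0.31. HGSNAT, a transmembrane acetyltransferase of heparan sulfate breakdown, was at 5.26, 5.75 and 4.57 FPKM in Scramble cells, 9.91, 11.08 and 10.52 in those given Si-FIBP#1 and 11.72, 12.85 and 9.70 in those given Si-FIBP#2. It rose most in the list, by 0.90 with Si-FIBP#1 and by 1.00 with Si-FIBP#2 (limma adjusted p = 1.5e-04 and 7.9e-05), where it just passed 2-fold. Without replicate 2 of Si-FIBP#2 the second value was 0.92, which is under 2-fold but still passed FDR. NPC2, a soluble sterol carrier that was also placed on this list, changed little (0.18 and 0.17), and neither call held when samples were scaled by their median ratio. ABCB9, a peptide transporter of the lysosomal membrane, fell by 0.49 and by 0.64 on the log2 scale.

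LAMP1, a main glycoprotein of the lysosomal membrane and a common marker of the organelle, moved in opposite directions with the 2 siRNAs. It was at 43.57, 41.25 and 40.80 FPKM in Scramble cells, 14.78, 17.18 and 18.49 in those given Si-FIBP#1 and 50.37, 64.65 and 52.66 in those given Si-FIBP#2. The 3 groups did not overlap. Si-FIBP#1 gave a log2 fold change of -1.27 (SE 0.10, limma adjusted p = 1.1e-05) and Si-FIBP#2 one of 0.40 (SE 0.10, limma adjusted p = 0.00989). Nearly all of it came from 1 transcript, ENST00000332556, at 40.9, 15.8 and 55.1 FPKM in the group means. Its relative LAMP2 rose with both siRNAs, by 0.59 and 0.39, when all transcripts were summed. Its main transcript, ENST00000371335, was at 16.8, 27.9 and 23.6 FPKM in the means of Scramble, Si-FIBP#1 and Si-FIBP#2. The less abundant ENST00000200639 went the other way, at 4.1, 2.84 and 3.1 FPKM. Single transcripts were not tested. In release 29 of GENCODE (GRCh38), LAMP1 occupies positions 113297241 to 113323672 of chromosome 13 (plus strand).

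The adaptor and clathrin genes did not follow the enzymes. Of 25 tested, 6 rose and 8 fell with Si-FIBP#1, and 8 rose and 6 fell with Si-FIBP#2. The rises were 24% and 32%, against 27.8% and 31.1% of all genes, and the falls 32% and 24%, against 19.9% and 17.7%. The median log2 fold changes were 0.06 and 0.09. These medians were near those of all genes and turned to -0.02 and -0.03 when samples were scaled by their median ratio, with 5 higher and 10 lower, and 7 higher and 9 lower. In 8 of the 25 genes (32%, against 16.5% of all genes) all 6 FIBP siRNA samples lay below all Scramble samples, and in 5 (20%, against 26.3%) they lay above.

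AP1M2, the epithelial medium chain of AP-1, fell most with Si-FIBP#1. It was at 25.15, 19.97 and 21.39 FPKM in Scramble cells, 9.07, 11.02 and 10.84 in those given Si-FIBP#1 and 15.53, 13.63 and 14.11 in those given Si-FIBP#2, with log2 fold changes of -1.03 and -0.58. AP3M1, the medium chain of AP-3, fell most with Si-FIBP#2. It was at 30.26, 29.06 and 28.37 FPKM in Scramble cells, 18.99, 20.38 and 22.19 in those given Si-FIBP#1 and 15.08, 16.64 and 16.37 in those given Si-FIBP#2, with log2 fold changes of -0.49 and -0.83. CLTA, a clathrin light chain, and AP1S1, the small chain of AP-1, were the most abundant of the list and rose, by 0.33 and 0.30 and by 0.35 and 0.61. Different chains of the same complex thus went different ways: AP1S1 rose and AP1M2 fell with both siRNAs. AP1G2 was low, at 3.85, 2.21 and 2.45 FPKM in the Scramble samples and 5.99, 5.69 and 4.64 in those given Si-FIBP#1, and rose by 0.77 with that siRNA. AP3S2 passed with Si-FIBP#2 only (0.64), and it shares sequence with the readthrough gene ARPIN-AP3S2.

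The siRNAs were compared directly, since the lysosome genes responded to both. Of the 180 tested genes on the map, 17 were higher and 7 lower with Si-FIBP#2 than with Si-FIBP#1, against 9.58% and 5.8% of all genes, and LAMP1 was the 1 gene past 2-fold (0.561% of all genes). The split was 21 higher and 4 lower when scaled to TPM, and 16 and 11 by the median ratio. The difference for LAMP1 was 1.67 (95% interval 1.44 to 1.90, limma adjusted p = 5.4e-05). GUSB was at 26.82, 24.24 and 26.15 FPKM after Si-FIBP#1 but 40.86, 44.59 and 39.88 after Si-FIBP#2, a difference of 0.68. CD68, a glycoprotein of late endosomes and lysosomes, was at 38.31, 40.28 and 37.61 FPKM after the first and 66.96, 50.86 and 64.87 after the second, a difference of 0.63. MCOLN1, a lysosomal calcium channel, fell with Si-FIBP#1 (-0.22) and rose with Si-FIBP#2 (0.36), and the difference of 0.58 had a limma adjusted p of 0.00202. CTSC was lower with Si-FIBP#2 by 0.52.

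Among the hydrolases and activators, 5 were higher and 2 lower with Si-FIBP#2, and 40 of 47 did not pass (4 higher and 4 lower when scaled by the median ratio). For the members that did not pass, the interval bounds what the data allow: that of GAA ran from -0.12 to 0.28 and that of PSAP from -0.10 to 0.10. The count of lower genes rested on replicate 2 of Si-FIBP#2. Without it, 21 genes on the map were lower, among them LGMN (-0.90), PPT2 (-0.51), SMPD1 (-0.50), IGF2R (-0.47) and FUCA1 (-0.30), and without replicate 1 of that group only 2 were. LGMN was lower by 0.64 with all samples (limma adjusted p = 0.0403), and this call was lost in 12 of 17 other settings, as was that for GALC (0.38).

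**Figure D3:**
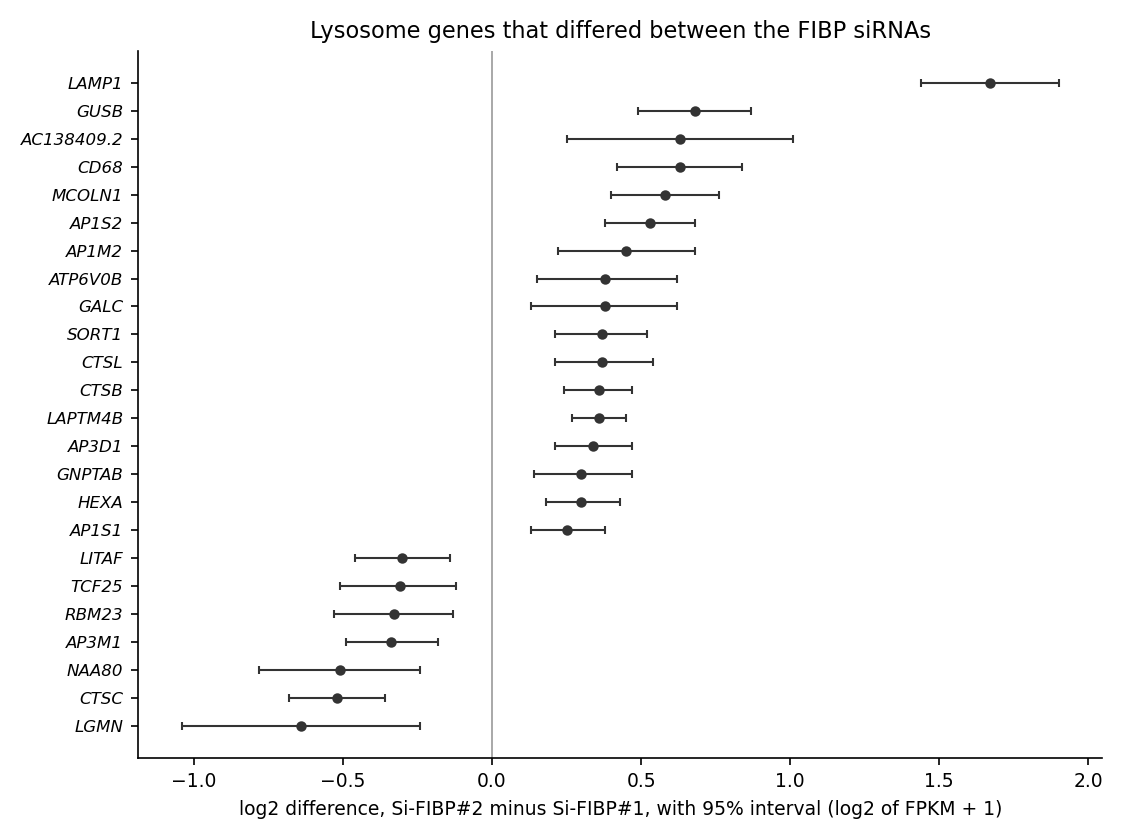
Log2 difference between Si-FIBP#2 and Si-FIBP#1 (x axis, log2 of FPKM + 1, positive where Si-FIBP#2 was higher) with its 95% interval for the 24 genes on the lysosome map that passed FDR below 0.05 between the siRNAs. LAMP1 lies at 1.67, apart from the others, which lie between -0.64 and 0.68.

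Related genes that the map leaves out were counted in the same way. Of 12 tested V-ATPase genes outside the map, 5 rose and 0 fell with Si-FIBP#1, and 6 rose and 1 fell with Si-FIBP#2. Over all genes 27.8% rose and 19.9% fell with the first siRNA and 31.1% and 17.7% with the second, and whether these small lists differ from those shares was not tested. ATP6V1F, a subunit of the catalytic part, rose by 0.84 with each, and ATP6V1A, the catalytic subunit itself, fell by 0.29 with Si-FIBP#2. ATP6V0E1 was at 83.26, 81.68 and 73.71 FPKM in Scramble cells, 143.40, 153.11 and 146.10 in those given Si-FIBP#1 and 49.61, 96.79 and 48.31 in those given Si-FIBP#2. It rose with Si-FIBP#1 (0.88), while with Si-FIBP#2 replicate 2 lay above the Scramble samples and the other samples well below them. Its log2 fold change with Si-FIBP#2 was -0.36 (limma adjusted p = 0.191), and -0.69 (limma adjusted p = 5.5e-05) without replicate 2. Between the siRNAs it differed by -1.25 (limma adjusted p = 0.0057), past 2-fold, and this call held in all 17 other settings (-1.57 to -1.08).

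Ragulator, the Rag GTPases and the folliculin complex tether and control mTORC1 at the lysosome. Of their 12 genes, 8 rose with Si-FIBP#1 and 0 fell, and 8 rose and 1 fell with Si-FIBP#2. Over all genes 27.8% rose and 19.9% fell with the first siRNA, and 31.1% and 17.7% with the second. RRAGD was at 7.13, 8.78 and 8.40 FPKM in Scramble cells, 13.95, 21.64 and 15.83 in those given Si-FIBP#1 and 26.25, 22.91 and 23.36 in those given Si-FIBP#2, with log2 fold changes of 0.98 and 1.47. RRAGA rose by 0.21 with Si-FIBP#1 (lost in 2 of 17 other settings) and fell by 0.29 with Si-FIBP#2. Of the 6 HOPS genes, which serve fusion with lysosomes, 3 rose and 0 fell with each siRNA, beside the same shares of all genes, with the largest rise in VPS33A (0.68 and 0.66). In retromer, which returns cargo from endosomes, VPS26B rose (0.42 and 0.50) and VPS26A fell (-0.39 and -0.34).

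Of the factors that control lysosomal genes, TFE3 was the most abundant, at 22.64 to 24.70 FPKM in Scramble cells, 22.87 to 26.96 after Si-FIBP#1 and 24.36 to 28.75 after Si-FIBP#2. Its groups overlapped, and it did not pass with either siRNA (0.04 and 0.18), although without replicate 2 of Si-FIBP#2 it passed there (0.25, limma adjusted p = 0.0274). TFEB was at 1.65, 1.07 and 1.35 FPKM in Scramble cells, 2.48, 1.72 and 1.18 in those given Si-FIBP#1 and 4.72, 2.40 and 2.12 in those given Si-FIBP#2. It passed with Si-FIBP#2 (0.74, limma adjusted p = 0.0308) at a low level, and not with Si-FIBP#1 (0.23, limma adjusted p = 0.479). The Si-FIBP#2 call was lost in 4 of 16 other settings (0.47 to 1.06, limma adjusted p up to 0.0942 over all 16), and the value was 0.47 without replicate 1 of that group. MITF and TFEC stayed at or under 0.36 FPKM in all samples and were not tested. These are mRNA levels, and the location and phosphorylation through which these factors are known to be controlled were not measured.

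Promoter sequences were read for 93 of the 123 genes with a role, from the RefSeq table on GRCh38.p14, which covers 250 bases before to 50 bases after each gene's start. The E-box CACGTG was present in 20 of them (21.5%), against 8.88% of 15843 protein-coding promoters and 7.43% of all 27305. The longer TCACGTGA, which contains it, was present in 11 (11.8%), against 1.43% and 1.04%. Both read the same on either strand. A match is only a run of letters, and other E-box factors recognise the same core. Windows of 30 bases around the first TCACGTGA before the start are shown for genes of 4 roles, 5′ to 3′ on the gene's strand with the motif in capitals, to set the sequence beside the response.
GAA (chr17:80101493-80101522, plus strand, 77 bases before the start): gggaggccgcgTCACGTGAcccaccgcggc
IGF2R (chr6:159968938-159968967, plus strand, 133 bases before the start): gcgcgctgcgcTCACGTGAcccgggcctgg
CTSA (chr20:45891298-45891327, plus strand, 26 bases before the start): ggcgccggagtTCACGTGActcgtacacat
MCOLN1 (chr19:7522571-7522600, plus strand, 42 bases before the start): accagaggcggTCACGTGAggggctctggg
LAMP1 (chr13:113297199-113297228, plus strand, 29 bases before the start): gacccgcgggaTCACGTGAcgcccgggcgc

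The same 8 letters stood before genes that responded differently. GAA, IGF2R and CTSA rose with both siRNAs, whereas MCOLN1 and LAMP1 fell with Si-FIBP#1 and rose with Si-FIBP#2. Over the whole promoter sequence that was read, LAMP1 held 6 copies of CACGTG, IGF2R 3, and GAA, CTSA and MCOLN1 2 each. Of the 11 tested genes with TCACGTGA, 8 rose and 2 fell with Si-FIBP#1 (median 0.39), beside 44 and 9 of 71 genes without it (median 0.33). With Si-FIBP#2, 10 rose and 0 fell (median 0.45), beside 43 and 9 of 71 (median 0.33). The promoter sequences of FUCA1, SMPD1 and LIPA, which were among the genes that rose most, do not hold these 8 letters, which says nothing of the factors. These counts are a description and were not tested.

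The 249 genes on the map without a listed role were mostly a different kind of set. Among the exceptions, FUCA2, HYAL2 and HYAL3 had all their transcripts on the map, in the orthology groups of FUCA1 and HYAL1. Only 31 of the 249 were protein coding in release 29. A further feature was that 140 (56.2%) were on the map through K01368, the orthology group of cathepsin S. This was often by a single transcript of a gene of another kind. CTSS itself was at a mean of 0.05 FPKM with Scramble. Of the 72 tested, 20 rose and 3 fell with Si-FIBP#1, and 18 rose and 4 fell with Si-FIBP#2. The rises were 27.8% and 25.0% of the set, beside 27.8% and 31.1% of all genes, and the falls were 4.17% and 5.56%, below the 19.9% and 17.7% of all genes. Median log2 fold changes were 0.20 and 0.18, beside 0.07 and 0.11. HELLS, a chromatin remodeler of the SNF2 family, was on the map through 1 of 15 transcripts, which held 2.65% of its FPKM. It was at 20.16, 27.54 and 23.71 FPKM in Scramble cells, 10.43, 7.96 and 12.53 in those given Si-FIBP#1 and 7.84, 7.13 and 7.62 in those given Si-FIBP#2. Its log2 fold changes of -1.14 and -1.53 therefore do not describe a lysosomal product. GABPB1-AS1 (1.20 and 0.94), ZSCAN16-AS1 (0.64 and 1.27) and the pseudogene AC138409.2 (0.38 and 1.01) also passed 2-fold in 1 comparison, and whether strand was used in quantification is not given in the sources used here. FP236383.3, annotated as a long noncoding RNA on chromosome 21, was listed at 2277.12 to 2851.51 FPKM, of which 0.0336% came from transcripts on the map. Nearly all of it came from transcripts assembled from the reads. Its annotated transcript ENST00000623860 was at means of 0.333, 1.5 and 1.12 FPKM with Scramble, Si-FIBP#1 and Si-FIBP#2. The listed level therefore does not describe the annotated RNA. This gene outweighs every other in a sum over all 372, so sums are given for the role lists.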

How the data were processed

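RNA-seq of 9 samples of H1299 cells was used, 3 each with Scramble, Si-FIBP#1 and Si-FIBP#2, grouped by their labels. Each sample has 1 deposited table of transcript FPKM made by the authors. The unit was inferred from the values. The submitters' processing notes name HISAT2 and StringTie without versions, and genome build and annotation release are not given in the sources used here. FPKM divides by library total and transcript length, so a shift in abundant genes moves all others, and reads of similar genes may be shared.

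FPKM were summed per gene. The 14985 genes that reached 1 FPKM in 3 or more samples were fitted with limma 3.58.1 (R 4.3.3, mean-variance trend) on log2(FPKM + 1), all 9 samples in 1 model. P-values were adjusted by Benjamini-Hochberg, with calls at FDR below 0.05 alone or with over 2-fold. The script was tested on simulated data. Tables were handled in Python 3.11.15 with pandas 2.3.3. Depth was estimated from the spacing of low FPKM values. Positions come from GENCODE release 29 (GRCh38), matched by Ensembl identifier.

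The genes, role lists and tests were chosen with earlier results of these data known. Named genes are FIBP, the 2 most abundant of each list, the largest rise and fall past FDR in each list, all past 2-fold, those over 1.5-fold between siRNAs, and the MiT/TFE factors. ATP6V0A1, ATP6V0D1, ATP6V0A2, MCOLN1, LAMP2, SUMF1, SORT1, FUCA2, HYAL2, HYAL3 and the 15 genes that were not tested were named after their values were seen. Alternatives changed the pseudocount, filter, scaling, samples in the fit and transcripts summed, added a replicate block, or left out each sample. Some genes that the naming rule picked are not reported here.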

Additional observations from a re-analysis of the deposited data

Results flagged for a closer look

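For 5 genes on the lysosome map the response differed between the siRNAs by over 1.5-fold in the limma contrast of Si-FIBP#2 against Si-FIBP#1, with Benjamini-Hochberg adjustment over all genes. The share of all genes past 1.5-fold was not counted. At FDR below 0.05 alone, 9.44% of the tested genes on the map were higher and 3.89% lower, against 9.58% and 5.8% of all genes. LAMP1 was higher with Si-FIBP#2 by 1.67 on the log2 scale (adjusted p = 5.4e-05), GUSB by 0.68 (adjusted p = 0.00129) and CD68 by 0.63 (adjusted p = 0.00284). AC138409.2, a pseudogene that matched the orthology group of GUSB, was higher by 0.63 (adjusted p = 0.0356), and reads may be shared between them. This call was lost in 7 of 16 other settings, with values of 0.46 to 0.82 and adjusted p up to 0.108. LGMN was the 1 gene that was lower, with -0.64 (adjusted p = 0.0403). Leaving out Si-FIBP#2 replicate 2 gave 1.56 for LAMP1, 0.63 for GUSB, 0.75 for CD68, 0.70 for AC138409.2 and -0.90 for LGMN. The causes were not tested.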

How the results depend on the processing

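For the genes named by rule, 114 calls were recomputed under 17 alternatives, and a call was counted only where it passed in the main comparison. Of 1935 pairs of call and alternative, 1811 kept their direction and side of the threshold, 124 lost significance and 0 reversed. At least 1 alternative ended 18 of the calls. With Si-FIBP#2 the all-gene median was 0.11, and 0.00 once scaled by the median ratio. Under that scaling 57 genes with a role rose and 17 fell with Si-FIBP#1, and 58 rose and 14 fell with Si-FIBP#2. Their median log2 fold change was then 0.27 with each siRNA, beside 0.00 over all genes. The shares of all genes called were counted in the main fit only, so counts under other settings have no such share beside them. Counts over the tested genes on the map moved by over 1.5 times as follows. With Si-FIBP#2 against Scramble, 13 genes were lower, 20 when scaled by the median ratio, and 8 to 13 when 1 sample was left out, with 8 without Scramble replicate 1 or 2. Between the siRNAs, 17 were higher, and 11 to 18 when 1 sample was left out. The 7 that were lower became 3 without a filter on low values, 4 when scaled to TPM, 11 when scaled by the median ratio, 3 with only the 2 groups compared, and 2 to 21 when 1 sample was left out, with 21 without Si-FIBP#2 replicate 2. The count past 2-fold was 1 to 2. The causes were not tested.

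Deviations from the group means correlated across genes at -0.0568 to 0.103 between samples with the same replicate number. Between samples with different numbers the values were -0.142 to 0.049. The deviations were taken from means of 3 samples, so these small values cannot settle whether the numbers pair the samples. With the replicate number as a block, 85 genes rose and 17 fell with Si-FIBP#1, 85 rose and 13 fell with Si-FIBP#2, and 17 were higher and 6 lower between the siRNAs. Only FPKM were available, so no count model was fitted. With 3 samples a group, differences that missed the threshold are bounded only by their intervals.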
